A study of Mus musculus with 8 samples.

Results

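Of the 23332 transcript clusters on the array, the 6 described here had their highest intensity in mouse keratinocytes given the integrin α3 subunit alone. They are Mctp1, Glipr2, Tnip3, Il5ra, Mcpt8 and Arhgdib. They were chosen by symbol, because their values in the α3 line lie far above those of the 3 other lines, and each symbol is annotated to exactly 1 cluster. A transcript cluster is the array's unit for a gene, read by many short probes along its exons. That the α3 line is highest is therefore how the members were found, and the differences between that line and the others are given as a description with no test.

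The parent line, MK546, came from keratinocytes of newborn mice lacking α3 and was immortalized with SV40 large T antigen. The α3 line carried human α3 by stable transfection, the α3α9 line carried human α3 and human α9, the α9 line carried human α9 by retroviral transduction, and the null line carried neither. Each of these 4 combinations was 1 line with 2 arrays, and the labels do not say whether a line was 1 clone. All of them lacked mouse α3, expressed large T antigen, and grew at 33 °C and 8% CO2 on collagen (30 µg per ml) in 4% serum, with calcium at 0.05 mM, EGF at 10 ng per ml and interferon-γ at 10 units per ml. The labels call the arrays biological replicates without naming separate cultures, and the spread behind each p-value is that between arrays, which may be technical only. The titles mark the α3 and null arrays as a re-analysis and leave the α3α9 and α9 arrays unmarked. Differences between α3 and null, and between α3α9 and α9, lie within 1 such set. Every other difference between lines crosses the sets, so that α9 and array set cannot be told apart there.

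Integrins are cell surface receptors that join an α and a β subunit and bind the extracellular matrix. The α3β1 integrin is a keratinocyte receptor, though not the only one, for laminins of the epidermal basement membrane. The α9β1 integrin binds other ligands, tenascin-C among them. The 6 transcripts are not known as one pathway. Il5ra encodes the ligand-binding chain of the interleukin-5 receptor, known from eosinophils and B cells. Mcpt8 encodes a serine protease of mouse basophil granules. Arhgdib encodes a dissociation inhibitor of small GTPases that is abundant in blood cells. Tnip3 encodes ABIN-3, a partner of the ubiquitin-editing enzyme A20 (Tnfaip3), which restrains NF-κB signalling. Glipr2 encodes GAPR-1, a Golgi-associated protein of the CAP superfamily that binds the autophagy protein Beclin 1. Mctp1 encodes a membrane protein with several C2 domains, the calcium-binding folds found in proteins of membrane traffic.

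The members lie on 4 chromosomes: Mctp1 on 13, Glipr2 on 4, Mcpt8 on 14, and Tnip3, Il5ra and Arhgdib on 6. RefSeq (assembly GRCm38.p6) gives promoter windows, 250 bases before to 50 after a transcript's start, for 6 of 6 members, and 3 starts for Arhgdib. The windows of Mctp1, Tnip3 and Il5ra are printed because Mctp1 had the largest difference of the 6 between α3 and null, Tnip3 an NF-κB consensus that matches on both strands, and Il5ra was the one of the 6 with the α3α9 line lowest. Capitals mark matches, on either strand, to the motifs named after them.
Mctp1, chr13:76579347-76579646, plus strand: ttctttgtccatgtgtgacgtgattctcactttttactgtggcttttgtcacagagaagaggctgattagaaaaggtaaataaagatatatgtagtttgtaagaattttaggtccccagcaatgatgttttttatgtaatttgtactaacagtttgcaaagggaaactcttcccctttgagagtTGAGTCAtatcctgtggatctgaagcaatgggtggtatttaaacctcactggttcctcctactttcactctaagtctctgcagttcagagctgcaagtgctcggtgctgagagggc
Tnip3, chr6:65590148-65590447, plus strand: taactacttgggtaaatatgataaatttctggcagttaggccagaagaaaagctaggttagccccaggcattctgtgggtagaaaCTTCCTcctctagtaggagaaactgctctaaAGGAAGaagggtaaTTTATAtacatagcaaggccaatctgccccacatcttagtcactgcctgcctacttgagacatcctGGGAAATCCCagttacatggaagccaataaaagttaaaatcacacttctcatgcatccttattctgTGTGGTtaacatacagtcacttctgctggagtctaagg
Il5ra, chr6:106748988-106749287, minus strand: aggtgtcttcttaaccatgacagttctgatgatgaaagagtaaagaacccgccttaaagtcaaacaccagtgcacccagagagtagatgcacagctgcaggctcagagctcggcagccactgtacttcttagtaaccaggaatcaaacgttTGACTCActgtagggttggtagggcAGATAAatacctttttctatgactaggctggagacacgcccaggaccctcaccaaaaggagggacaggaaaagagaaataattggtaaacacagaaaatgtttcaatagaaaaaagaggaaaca

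A set of 7 motifs was searched on both strands, with N for any base, and was chosen after the values were known. A member is named if any of its windows matched, with 3 windows for Arhgdib, while the percentages are of single windows. The AP-1 letters TGANTCA occurred in Mctp1, 66 bases before the start (position -66 with the start as 0), and in Il5ra at position -99, against 7.81% of all 32851 windows. The NF-κB consensus occurred in Tnip3 at position -54 and in the first Arhgdib window at position -65, against 8.46% of all windows. The GATA letters AGATAA occurred in Il5ra and Arhgdib (11.2% of all windows), and the TEAD letters GGAATG in Mcpt8 and Arhgdib (14.7%). The RUNX letters TGTGGT occurred in Tnip3, Mcpt8 and Arhgdib (16.8%). The ETS letters AGGAAG (35.4%) and the TATA letters TATAAA (13.6%) each occurred in Tnip3 and Arhgdib. In Mcpt8 a TEAD and a RUNX match overlap, and in the second Arhgdib window 2 ETS matches on the minus strand overlap. None of these letters lay in the Glipr2 window, which is 70% G and C, against a median of 52.7% over all windows and 40.7% in Mctp1. No motif was common to all 6 members.

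Values are deposited intensities on a linear scale, one per cluster and array, and are set side by side only within a gene. The plot of intensity on each array shows all of them.

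**Figure D1:**
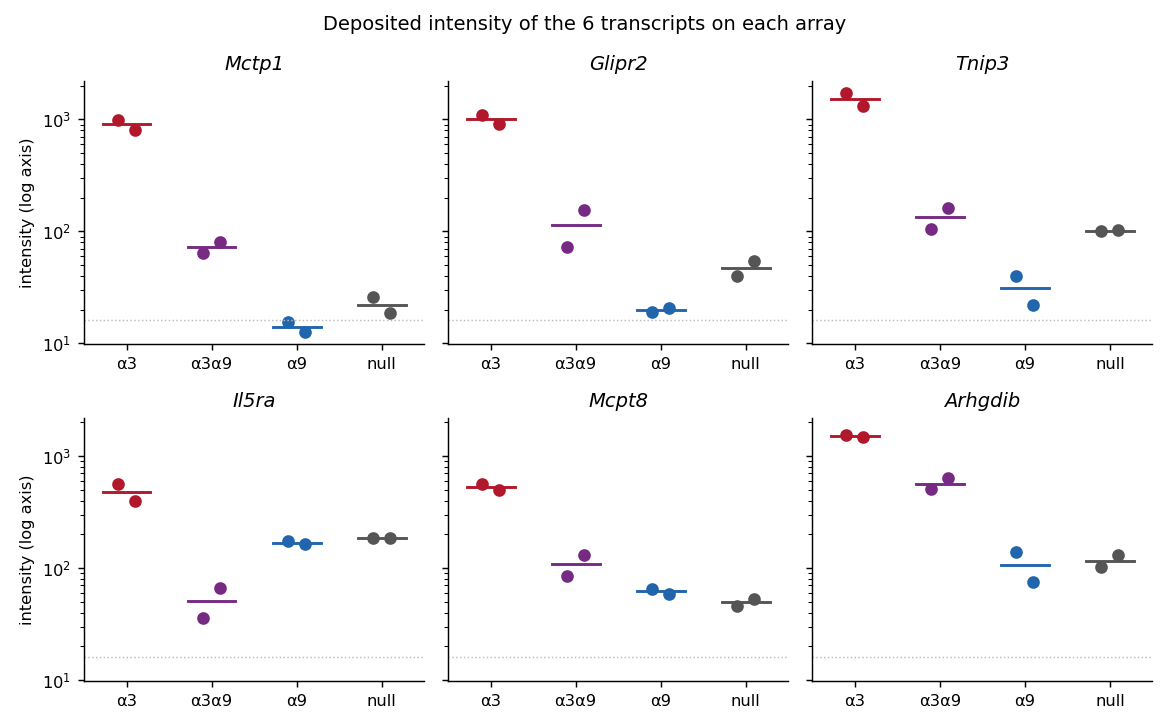
Deposited intensity (log axis) of the 6 transcripts on each of the 8 arrays, by line, with 1 point per array and a bar at the mean of 2. The α3 arrays sit above all others in each panel, the α3α9 arrays lie between the α3 arrays and the rest in 5 panels, and in the Il5ra panel they lie lowest. The dotted line marks an intensity of 16.

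Tnip3, the A20 partner, had intensities of 1723 and 1314 in the α3 line, 105 and 163 in the α3α9 line, 40.1 and 21.9 in the α9 line, and 100.4 and 103 in the null line. No line overlapped another, and the α3α9 arrays lay just above the null arrays. The means were 1518 ± 289, 134 ± 40.5, 31.0 ± 12.9 and 101 ± 1.52 (SD, n = 2) in the α3, α3α9, α9 and null lines. The α3 mean was 15.0 times the null mean, and the α3α9 line held 8.82% of the α3 mean.

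Il5ra, the interleukin-5 receptor chain, had intensities of 566 and 395 in the α3 line, 35.5 and 66.5 in the α3α9 line, 173 and 164 in the α9 line, and 184 and 187 in the null line. The α3α9 arrays were the lowest of the 8, below both lines without α3, a place no other member had. The means were 480.4 ± 121, 51.0 ± 21.9, 169 ± 6.48 and 185 ± 2.03 in the α3, α3α9, α9 and null lines. The α3 mean was 2.59 times the null mean, the smallest of the 6 ratios, and the α3α9 line held 10.6% of the α3 mean.

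Mctp1, the C2-domain protein, had intensities of 994 and 809.9 in the α3 line, 64.2 and 80.3 in the α3α9 line, 15.5 and 12.6 in the α9 line, and 25.8 and 18.5 in the null line. The lines without α3 lay near the dim end of the array, with both α9 arrays under 16. The means were 902 ± 130.5, 72.3 ± 11.4, 14.0 ± 2.05 and 22.2 ± 5.17 in the α3, α3α9, α9 and null lines. The α3 mean was 40.7 times the null mean, a ratio to values for which no background level is given, and the α3α9 line held 8.01% of the α3 mean.

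Glipr2, the Golgi-associated CAP protein, had intensities of 1090.0 and 912 in the α3 line, 72.6 and 154 in the α3α9 line, 19.1 and 20.7 in the α9 line, and 40.3 and 54.0 in the null line. The lines did not overlap, though the 2 α3α9 arrays stood far apart from each other. The medians of these arrays over all clusters, 82.8 and 127, were also the lowest and highest of the 8. The means were 1001 ± 126, 113 ± 57.5, 19.9 ± 1.12 and 47.1 ± 9.72 in the α3, α3α9, α9 and null lines. The α3 mean was 21.2 times the null mean, and the α3α9 line held 11.3% of the α3 mean.

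Arhgdib, the GTPase inhibitor, had intensities of 1555 and 1491 in the α3 line, 504 and 633 in the α3α9 line, 139 and 74.5 in the α9 line, and 102 and 129.6 in the null line. The α9 and null arrays overlapped, and both α3α9 arrays lay clear of them. The means were 1523 ± 45.4, 568 ± 91.0, 107 ± 45.9 and 116 ± 19.5 in the α3, α3α9, α9 and null lines. The α3α9 line held 37.3% of the α3 mean, the largest share of the 6.

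Mcpt8, the basophil protease, had intensities of 561 and 502 in the α3 line, 85.1 and 131 in the α3α9 line, 65.4 and 58.4 in the α9 line, and 45.9 and 52.9 in the null line. The α9 arrays lay just above the null arrays, the reverse of their order in the other 5 members' means. The means were 532 ± 41.1, 108 ± 32.2, 61.9 ± 4.96 and 49.4 ± 4.96 in the α3, α3α9, α9 and null lines. The α3α9 line held 20.3% of the α3 mean. Mcpt8 belongs to a family of related proteases, and cross-reading between their probes was not tested.

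The order of the means was α3, α3α9, null, α9 for Mctp1, Glipr2, Tnip3 and Arhgdib. It was α3, α3α9, α9, null for Mcpt8, and α3, null, α9, α3α9 for Il5ra. Neighbours at the low end did not always differ beyond their spread, and between the α9 and null lines a test was passed by Tnip3 alone. In cultures measured in bulk, fewer cells with a transcript and less transcript per cell cannot be told apart.

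As a description of the contrasts that chose the members, the difference α3 minus null on the scale of log2(intensity + 16) was 4.59 ± 0.22 (SE) for Mctp1, 4.01 ± 0.30 for Glipr2 and 3.69 ± 0.27 for Tnip3. It was 3.55 ± 0.27 for Arhgdib, 3.07 ± 0.23 for Mcpt8 and 1.28 ± 0.27 for Il5ra. Adding 16 before the logarithm understates the change of dim transcripts. Over all clusters the median of this difference was 0.01, and 1.3% of clusters were called in limma at an adjusted p of 0.05, 0.947% higher and 0.351% lower. That split of 221 higher and 82 lower depended on scaling, with 684 higher and 749 lower after centring arrays on their medians and 1046 higher and 877 lower after quantile normalization.

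The difference α3α9 minus α3, which crosses the array sets, was -3.38 for Mctp1, -3.37 for Tnip3, -3.05 for Glipr2, -2.91 for Il5ra, -2.17 for Mcpt8 and -1.41 for Arhgdib on the same scale, where 3.28% of all clusters were called, 2.14% higher and 1.14% lower. That split of 499 higher and 266 lower became 2964 and 1399 after centring, 2352 and 2046 after quantile normalization, and 345 higher and 1217 lower without α3α9 replicate 2. The interaction is the α3 difference with α9 present (α3α9 minus α9) minus the α3 difference without it (α3 minus null). Each of its parts lies within 1 set, but the parts lie in different sets. Whether the α3 difference varied with α9 or with array set therefore cannot be told apart. The interaction was -3.03 ± 0.31 for Mctp1, -2.78 ± 0.38 for Il5ra, -2.42 ± 0.32 for Mcpt8, -2.24 ± 0.42 for Glipr2, -2.02 ± 0.39 for Tnip3 and -1.26 ± 0.39 for Arhgdib. All 6 values were negative, and all include the α3 arrays that chose the members.

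The comparison of the α3α9 and α9 lines asks whether the members differed with α3 in cells that carry α9. It lies in 1 array set and leaves out the α3 line, although the choice of members also asked that both lines be low. In it, 4 members were higher, 1 was lower and 1 did not pass. Arhgdib rose by 2.29 ± 0.27 (log2, SE; limma adjusted p = 0.0026), with both α3α9 arrays above both α9 arrays. Glipr2 rose by 1.77 ± 0.30 (adjusted p = 0.015), Tnip3 by 1.67 ± 0.27 (adjusted p = 0.013) and Mctp1 by 1.55 ± 0.22 (adjusted p = 0.0060), again with no overlap of arrays. Il5ra went the other way, lower in the α3α9 line with a difference of -1.50 ± 0.27 (adjusted p = 0.021). Mcpt8 had a difference of 0.65 ± 0.23 (adjusted p = 0.27), although its arrays did not overlap either.

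The background in α3α9 minus α9 was 1.87% of clusters called, 1.05% higher and 0.823% lower. That split of 244 higher and 192 lower became 1263 and 653 after centring, 1324 and 1004 after quantile normalization, and 158 higher and 760 lower without α3α9 replicate 2. The median of the 6 members was 1.61, against -0.06 over all clusters. On the linear scale the α3α9 mean of Arhgdib was 5.31 times the α9 mean, and the α9 mean of Il5ra was 3.31 times the α3α9 mean. These calls changed with the α9 arrays left out: without α9 replicate 2 only 1 member, Arhgdib, passed, and without α9 replicate 1 3 members did. With a pseudocount of 1 in place of 16, 2 members passed.

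**Figure D2:**
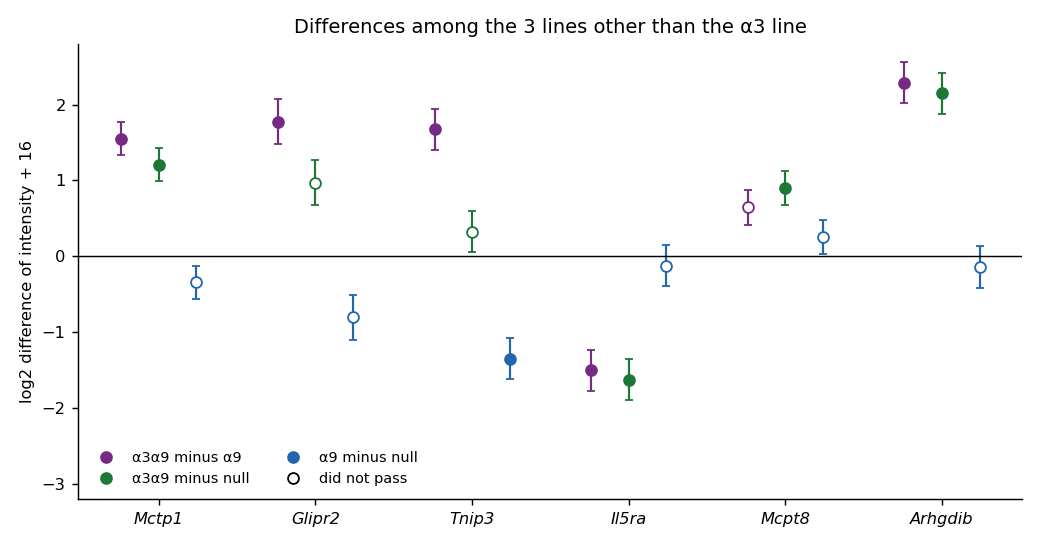
Differences (log2 of intensity + 16) of each transcript among the 3 lines other than the α3 line, with SE bars, 6 transcripts along the axis. Filled points passed a limma adjusted p of 0.05: 4 members were higher and Il5ra lower in α3α9 minus α9, while in α9 minus null only Tnip3 passed, at -1.35.

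In the α9 line against the null line, the contrast in which α9 was present without α3, 1 member fell and 5 did not pass. Tnip3 fell by 1.35 ± 0.27 (log2, SE; limma adjusted p = 0.026), with both α9 arrays below both null arrays. Glipr2 had a difference of -0.80 ± 0.30 (adjusted p = 0.16), and the other four lay between -0.34 for Mctp1 and 0.25 for Mcpt8. The background was 4.32% of clusters called, 3.5% higher and 0.823% lower, with a median of 0.16 over all clusters and -0.24 over the members. Centring the arrays gave 1852 clusters higher and 1479 lower, against 817 and 192, and quantile normalization gave 2066 and 1942. Without α9 replicate 2, or without either null array, 0 members passed. This contrast crosses the array sets, so α9 and array set cannot be told apart.

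Against the null line, the α3α9 line had 3 members higher, 1 lower and 2 that did not pass. Arhgdib rose by 2.15 ± 0.27 (log2, SE; limma adjusted p = 0.0019), Mctp1 by 1.21 ± 0.22 (adjusted p = 0.011) and Mcpt8 by 0.90 ± 0.23 (adjusted p = 0.049), the last a call lost in 10 of 14 other settings. Il5ra fell by 1.63 ± 0.27 (adjusted p = 0.0069), with a null mean 3.63 times the α3α9 mean. Glipr2, at 0.97 ± 0.30 (adjusted p = 0.095), and Tnip3, at 0.33 ± 0.27 (adjusted p = 0.60), did not pass, so that for Tnip3 a difference of the α3α9 line from cells with neither subunit was not detectable here. The background was 5.93% called, 4.56% higher and 1.37% lower, with a median of 0.11 over all clusters and 0.93 over the members. The split of 1064 higher and 319 lower became 2336 and 1410 after centring and 2297 and 1985 after quantile normalization. Without null replicate 1 or without null replicate 2, 2 members passed, Il5ra and Arhgdib. This contrast also crosses the array sets.

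The pattern that chose the members was uncommon across the array but not theirs alone. Genes were ranked by their gap, the lowest α3 array minus the highest of the 6 other arrays on log2(intensity + 16). Of all clusters, 5.73% had a gap above 0, 0.129% (30 clusters) a gap above 1 and 0.0257% (6 clusters) a gap above 2. All 6 members had a gap above 1 and 3 of them a gap above 2, which their choice fixes. Among 14860 genes Mctp1 ranked 1, with a gap of 3.10, Tnip3 ranked 2 (2.90), Glipr2 ranked 4 (2.45), Mcpt8 ranked 8 (1.82), Arhgdib ranked 17 (1.22) and Il5ra ranked 25 (1.02).

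The 10 genes outside the 6 with the widest gap were Gimap9, Mmp3, H1f1, S100a8, Neurl3, Nnmt, Csf2, Slco1a5, Mrgprb1 and Slc39a4. Their means are given with the SD of 2 arrays. Gimap9, a small GTPase of lymphocytes, averaged 286 ± 20.2 in α3 cells, 30.3 ± 4.71 in α3α9 cells, 9.03 ± 1.03 in α9 cells and 30.3 ± 3.36 in null cells, with a gap of 2.53. Mmp3, the matrix metalloproteinase stromelysin, averaged 350.0 ± 29.2 in α3 cells, 44.9 ± 7.06 in α3α9 cells, 41.2 ± 4.89 in α9 cells and 45.4 ± 1.62 in null cells, with a gap of 2.39. H1f1, a linker histone, averaged 876 ± 134 in α3 cells, 122 ± 7.38 in α3α9 cells, 80.4 ± 4.69 in α9 cells and 187 ± 2.69 in null cells, with a gap of 1.96. The α9 mean was the lowest of the 4 lines in these 3 genes. S100a8, a calcium-binding protein of stressed keratinocytes and neutrophils, averaged 3449 ± 209 in α3 cells, 210.3 ± 17.1 in α3α9 cells, 601 ± 417 in α9 cells and 300.3 ± 6.16 in null cells. In all 4 of these genes, as in Il5ra, the α3α9 mean did not exceed the null mean. In S100a8, as in Il5ra, the α3α9 arrays (198 and 222) were also the lowest of the 8.

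Csf2, the cytokine GM-CSF, averaged 577 ± 123 in α3 cells, 70.9 ± 25.7 in α3α9 cells, 57.1 ± 51.1 in α9 cells and 166 ± 12.9 in null cells, with a gap of 1.40. Neurl3, a ubiquitin ligase, averaged 442 ± 2.11 in α3 cells, 114 ± 18.0 in α3α9 cells, 47.7 ± 10.4 in α9 cells and 53.8 ± 23.1 in null cells, the order of means that Mctp1 has. Nnmt, which methylates nicotinamide, averaged 670.5 ± 156 in α3 cells, 135 ± 42.3 in α3α9 cells, 50.5 ± 12.1 in α9 cells and 132 ± 18.6 in null cells. Of these 3, Csf2 alone had an α3α9 mean below its null mean. Slco1a5, a solute carrier, averaged 95.8 ± 28.8 in α3 cells, 16.5 ± 3.35 in α3α9 cells, 14.4 ± 2.55 in α9 cells and 16.4 ± 2.38 in null cells. Mrgprb1, a receptor of the Mas-related family, averaged 261 ± 21.0 in α3 cells, 36.2 ± 27.3 in α3α9 cells, 34.2 ± 12.6 in α9 cells and 78.2 ± 9.93 in null cells. The zinc importer Slc39a4 averaged 540.3 ± 47.7 in α3 cells, 183 ± 22.8 in α3α9 cells, 96.1 ± 16.1 in α9 cells and 77.2 ± 8.62 in null cells, the order of means that Mcpt8 has.

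The likeness to the 6, as Pearson r over 8 arrays with the mean of their centred log2 values, was 0.982 for Gimap9, 0.974 for Neurl3, 0.968 for Nnmt, 0.967 for Slco1a5 and 0.961 for Mmp3. It was 0.853 for Csf2 and 0.830 for S100a8, and among the members it was lowest for Il5ra, at 0.617. The points share 4 lines of 2 arrays, and the α3 arrays carry most of the range. Both the members and these genes were chosen for high α3 arrays, so a high r largely follows from that choice. The r of a member also includes its own values in the mean.

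**Figure D3:**
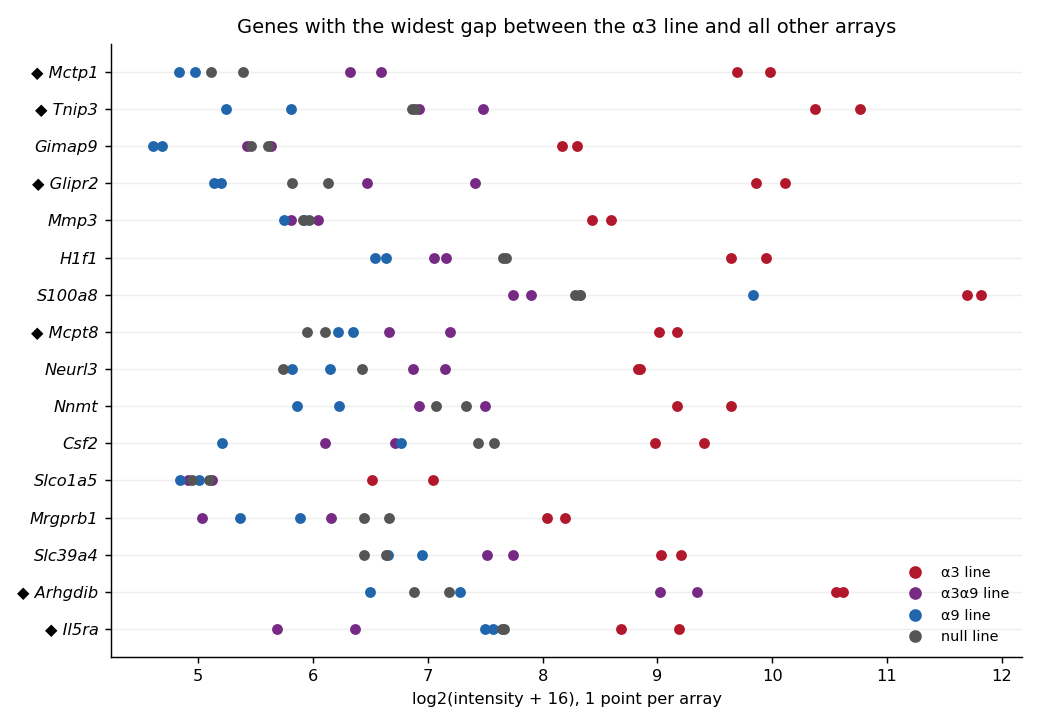
log2(intensity + 16) on each of the 8 arrays, 1 point per array coloured by line, for the 6 transcripts (diamonds) and the 10 other genes with the widest gap between the α3 arrays and all others. Mctp1 leads with a gap of 3.10. The α3α9 arrays are lowest in the bottom row, Il5ra, and also in S100a8.

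The relatives and partners of the members were read from lists drawn up with earlier results of these data known. Of 21 other genes of A20 and NF-κB control beside Tnip3, 0 passed in α3 minus null in limma (4 higher and 2 lower at an unadjusted p of 0.05), and their differences ran from -0.66 to 0.74 with a median of -0.04. Tnip1, which encodes ABIN-1, had intensities of 303 and 266 in the α3 line, 209.8 and 273 in the α3α9 line, 234 and 227 in the α9 line, and 150.2 and 177 in the null line. The α3 arrays lay above the null arrays, with a difference of 0.74 ± 0.21 that did not pass (limma adjusted p = 0.18). Tnfaip3, A20 itself, had intensities of 315 and 279 in the α3 line, 269.7 and 467 in the α3α9 line, 601 and 570.1 in the α9 line, and 382 and 419 in the null line, with the α3 arrays below the null arrays. In α3α9 minus α9, 0 of the 21 passed (2 higher and 3 lower at an unadjusted p of 0.05).

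Of 16 other genes of the interleukin-5, interleukin-3 and GM-CSF receptor pathway, 0 passed in α3 minus null in limma (2 higher and 2 lower at an unadjusted p of 0.05). Their differences ran from -0.70 to 1.69, with a median of -0.10. The largest was 1.69 ± 0.43 (limma adjusted p = 0.13) for Csf2 (GM-CSF), also among the 10 genes with the widest gap. In α3α9 minus α3, which crosses the array sets, 4 rose and 1 fell, beside 2.14% and 1.14% of all clusters. Csf2 was the gene that fell, at -2.79 ± 0.43 (limma adjusted p = 0.010). That call was lost with a pseudocount of 1 and without either α3 array. Of the 4 that rose, Pim1 had 1.497 (limma adjusted p = 0.0072) and Jak2 1.36 (adjusted p = 0.021). The others were Cish at 1.27 (adjusted p = 0.021) and Stat5b at 0.950 (adjusted p = 0.042). All 4 went the opposite way to Il5ra, at -2.91 in this contrast. Their calls too were lost without either α3 array, and those of Jak2, Cish and Stat5b with a pseudocount of 1. The Stat5b call was lost in 9 of 14 settings. In α3α9 minus α9, where Il5ra fell, 1 of the 16 fell and 0 rose, and 0.823% of all clusters were lower. Pim1 fell there by 1.39 ± 0.21 (limma adjusted p = 0.0096), a call lost with a pseudocount of 1 and without α9 replicate 2. Its means were 683 ± 13.9, 1966 ± 266, 5205 ± 827 and 720 ± 74.2 in the α3, α3α9, α9 and null lines. In α3α9 minus null, which crosses the array sets, 3 of the 16 rose and 0 fell, beside 4.56% and 1.37% of all clusters. Pim1 was among those that rose, by 1.43 ± 0.21 (adjusted p = 0.0043). The others were Socs2 at 1.499 (adjusted p = 0.039), a call lost in 7 of 14 settings, and Cish at 1.149 (adjusted p = 0.018). The signalling partner of the Il5ra chain, the common β chain Csf2rb, ranged from 28.1 to 58.1 over the 8 arrays. The ligand Il5 ranged from 13.5 to 37.5, near the dim end of the array. The receptor chain Il3ra ranged from 347 to 458.

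The C2-domain relatives of Mctp1 had 0 of 15 passing in α3 minus null or in α3α9 minus α9 in limma (1 higher and 1 lower at an unadjusted p of 0.05 in α3 minus null, 2 higher and 0 lower in α3α9 minus α9). The closest, Mctp2, ranged from 378 to 708 over the arrays. For Mcpt8, 0 of 11 other granule proteases and locus relatives passed in either contrast in limma, with 0 at an unadjusted p under 0.05 in α3 minus null and 1 higher in α3α9 minus α9. Its locus neighbours stayed dim, Mcpt2 between 5.02 and 16.4 and Ctsg between 20.3 and 37.9 on all arrays, and Cma1 ranged from 37.5 to 55.8.

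The CAP superfamily relatives of Glipr2 held the exception. Pi15, a secreted CAP protein, had intensities of 12.5 and 11.5 in the α3 line, 12.1 and 12.3 in the α3α9 line, 2568 and 1762 in the α9 line, and 1164 and 1309 in the null line. Both lines with α3 were under 16 and both lines without it were bright, the opposite of Glipr2 in direction. Pi15 fell by 5.48 ± 0.23 in α3 minus null (limma adjusted p = 2e-06) and differed by -6.25 ± 0.23 in α3α9 minus α9 (adjusted p = 1e-06), with both calls kept in each of 14 settings. Of 8 relatives, Pi15 was the 1 that fell in the first contrast, in which 0.351% of all clusters were lower. In the second, in which 0.823% were lower, 2 fell, the other being Crispld1, at -1.73 ± 0.28 (adjusted p = 0.012), a call lost with a pseudocount of 1 and without α3α9 replicate 1 or α9 replicate 1. Glipr1 had intensities of 1368 and 1024 in the α3 line, 744 and 1309 in the α3α9 line, 452 and 260.5 in the α9 line, and 812 and 868 in the null line. It did not pass in α3α9 minus α9, at 1.48 ± 0.33 (adjusted p = 0.056), in the direction of Glipr2. That result was the same in 9 of 14 settings and changed in the rest, with 0 weaker and 0 reversed. The difference ran from 1.08 to 1.88 over these settings. Of 13 autophagy genes, Becn1 (Beclin 1) among them, 0 passed in α3 minus null or in α3α9 minus α9 in limma. In these contrasts 0 had an unadjusted p under 0.05. In α9 minus null, where Glipr2 did not pass, 2 of the 13 rose, with 8 higher and 0 lower at an unadjusted p of 0.05 and a median of 0.63, against 0.16 over all clusters. These were Uvrag, a Beclin 1 partner, at 1.07 ± 0.22 (limma adjusted p = 0.027) and the kinase Ulk1 at 0.87 ± 0.21 (adjusted p = 0.049), both lost without any 1 of the α3, α9 or null arrays. In α3α9 minus null 1 of the 13 rose, Cav1, at 0.83 ± 0.20 (adjusted p = 0.039), a call lost in 9 of 14 settings, with 6 higher and 0 lower at an unadjusted p of 0.05. Both contrasts cross the array sets.

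**Figure D4:**
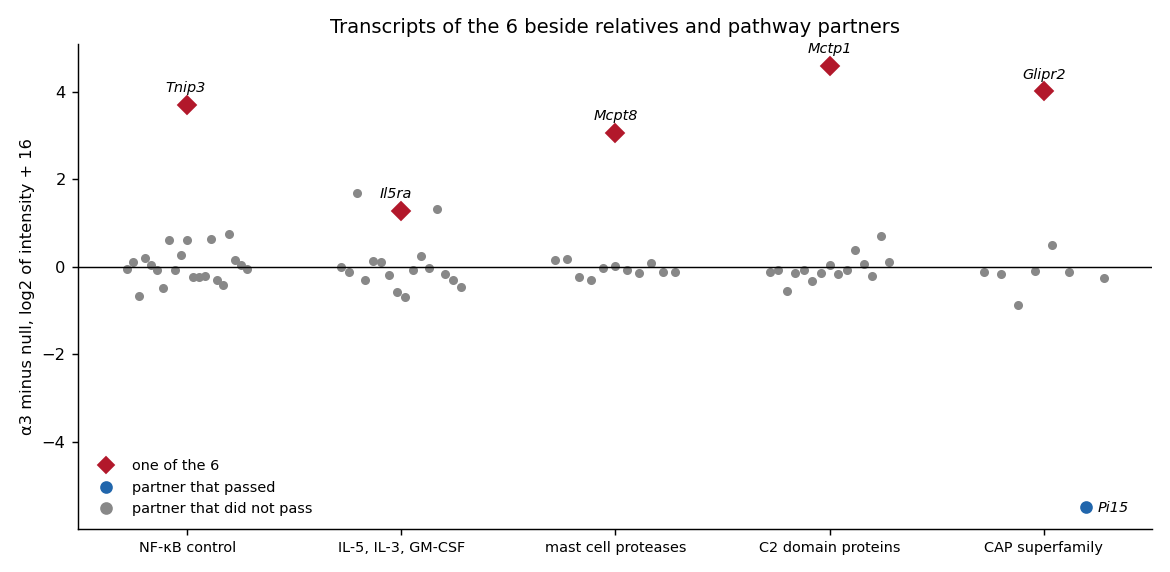
The difference α3 minus null (log2 of intensity + 16) of Tnip3, Il5ra, Mcpt8, Mctp1 and Glipr2 (diamonds) beside the other measured genes of each one's list (circles). Pi15, at -5.48, is the one partner that passed, and the diamonds lie between 1.28 and 4.59 by their choice.

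Several members are known from blood cells, so markers of other cell types were read beside them. Basophil and mast cell markers, 13 of 15 measured, summed to 484 to 559.6 in α3 cells, 489 to 679.6 in α3α9 cells, 587 to 660.2 in α9 cells and 502 to 541 in null cells. None of the 13 passed in any of 5 contrasts in limma, and in α3 minus null 0 were higher and 1 lower at an unadjusted p of 0.05. The defining marker Fcer1a, the IgE receptor chain, lay between 1.73 and 12.9 on all arrays, and 2, 1, 1 and 3 of the markers were under 16 on both arrays of the α3, α3α9, α9 and null lines.

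Eosinophil markers, 8 of 10 measured, summed to 325 to 363 in α3 cells, 294 to 405 in α3α9 cells, 359 to 418 in α9 cells and 339.6 to 340.5 in null cells, and 0 passed in α3 minus null in limma (0 at an unadjusted p of 0.05). Leukocyte markers, 15 of 17 measured, summed to 1457 to 1561 in α3 cells, 1231 to 1672 in α3α9 cells, 1536 to 1810 in α9 cells and 1015 to 1185 in null cells. The pan-leukocyte marker Ptprc (CD45) lay between 22.0 and 36.5. The 1 leukocyte marker that passed in α3 minus null was Lcp1, the actin-bundling protein L-plastin, with intensities of 364 and 311 in the α3 line, 107 and 125 in the α3α9 line, 58.4 and 47.6 in the α9 line, and 49.3 and 49.5 in the null line. Lcp1 rose by 2.43 ± 0.20 in α3 minus null (limma adjusted p = 2.47e-04), and its means had the order of Mcpt8's. Its difference in α3α9 minus α9 was 0.94 (adjusted p = 0.053). Both α3 arrays of Lcp1 lay above all its other arrays, as in the members and in 5.73% of all clusters. Lcp1 fell in α3α9 minus α3, at -1.42, and rose in α3α9 minus null, at 1.01. These contrasts cross the array sets, and each call was lost in 2 of 14 settings. In them 1.14% of all clusters fell and 4.56% rose. In α9 minus null, which crosses the array sets, 1 leukocyte marker rose, Cd68, beside 3.5% of all clusters. That call was lost in 7 of 14 settings.

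Keratinocyte markers, 11 of 13 measured, summed to 51414 to 55800.4 in α3 cells, 52623 to 58276 in α3α9 cells, 67160.5 to 68331 in α9 cells and 57925 to 60956 in null cells. The basal keratins Krt5 and Krt14 were bright on all 8 arrays, Krt5 between 13264 and 14926 and Krt14 between 11005 and 12893. No marker of this list passed in α3 minus null in limma (0 higher and 2 lower at an unadjusted p of 0.05). In α3α9 minus α9, 0 passed, with 0 higher and 4 lower at an unadjusted p of 0.05. The median of the 11 there was -0.34, against -0.06 over all clusters. In α3α9 minus null, which crosses the array sets, 1 of the 11 fell, beside 1.37% of all clusters. That was Trp63, a call lost in 7 of 14 settings. Markers of fibroblasts (9 of 9 measured), melanocytes (5 of 6) and endothelium (8 of 8) summed to at most 908, 369 and 375 on any array, and 0 passed in α3 minus null, with 0 at an unadjusted p under 0.05. The array's mouse Itga3 cluster read 1310 and 1181 in the α3 line, 819 and 1358 in the α3α9 line, 1135 and 772 in the α9 line, and 1008 and 934 in the null line. Itga9 read 49.6 and 39.0, 53.6 and 78.5, 64.6 and 61.8, and 47.4 and 52.7 in the α3, α3α9, α9 and null lines. Whether these probes read the deleted part or the human transcripts is not given in the sources used here, so they check the labels of no line.

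The genes beside the members in the gene order were read next, 5 measured genes on each side and 60 in all. In α3 minus null 1 of the 60 rose and 1 fell, against 0.947% and 0.351% of all clusters, and their median was 0.03. The one that rose was Gne, an enzyme of sialic acid synthesis that lies 3 genes from Glipr2, at 1.43 ± 0.22 (log2, SE; limma adjusted p = 0.011). Gne averaged 742 ± 45.4 in α3 cells, 1392 ± 153 in α3α9 cells, 608 ± 114 in α9 cells and 266 ± 38.1 in null cells, so its order of lines was not that of Glipr2. The one that fell was Pdzrn3, a ubiquitin ligase 5 genes from Il5ra, at -1.47 ± 0.23 (adjusted p = 0.014). Both calls were lost with a pseudocount of 1 and without any 1 of the α3 or null arrays. The nearest gene on each side of a member passed in neither α3 minus null nor α3α9 minus α9: these were Arsk and 2210408I21Rik at Mctp1, Reck and Ccin at Glipr2, Hpgds and Ndnf at Tnip3, Cntn4 and Trnt1 at Il5ra, Mcpt2 and Ctsg at Mcpt8, and Erp27 and Pde6h at Arhgdib. In α3α9 minus α9, 1 neighbour rose and 2 fell, against 1.05% and 0.823% of all clusters, with a median of -0.05.

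**Figure D5:**
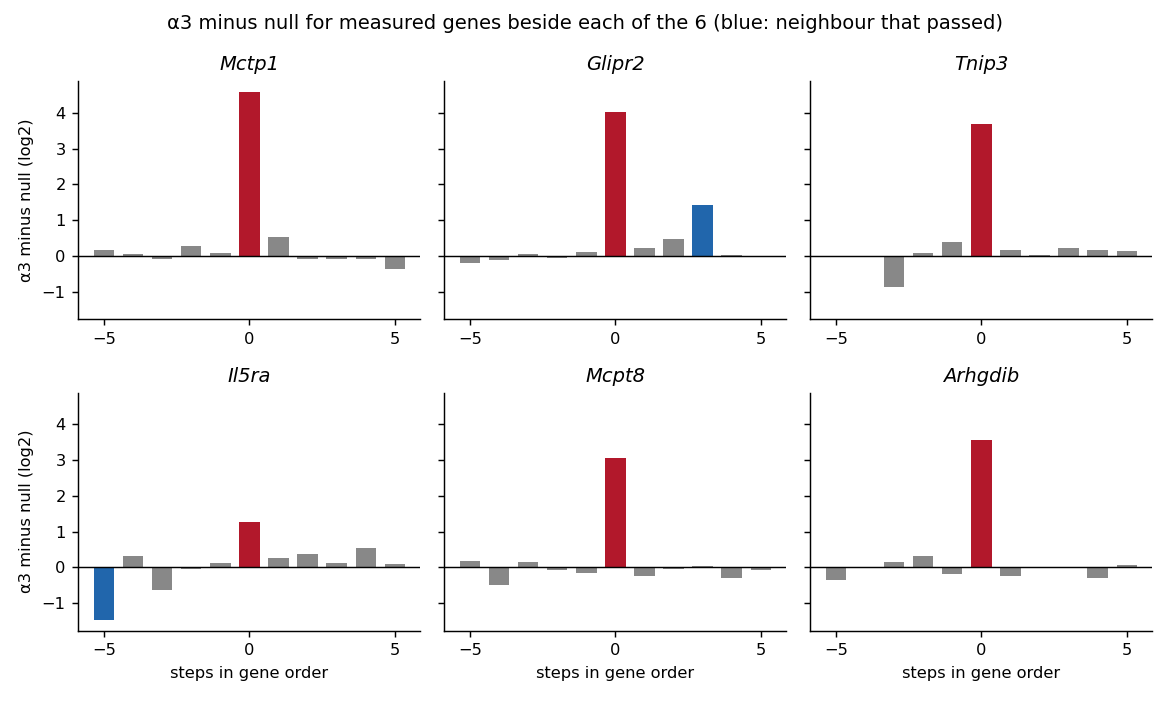
The difference α3 minus null (log2 of intensity + 16) for each of the 6 transcripts (red) and up to 5 measured genes on each side, in gene order. Of the 60 neighbours, Gne beside Glipr2 rose (1.43) and Pdzrn3 beside Il5ra fell (-1.47), both in blue. No other neighbour passed.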

How the data were processed

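RNA (1 µg a sample) was measured on Affymetrix Mouse Exon 1.0 ST arrays. The deposited intensities are linear values that, per the submitters' processing notes, the authors made with Affymetrix Expression Console and PLIER. The series' own text names the Exon Array Computational Tool. The sources used here give no version, build or filter. Exon arrays give no read depth, and the number of arrays limits the precision. Array medians were 82.8 to 127, and 7.09% to 14.1% of values on an array lay under 16. The lowest median was that of α3α9 replicate 1 and the highest that of α3α9 replicate 2. In each member, replicate 2 of that line was above replicate 1. The median SD between the 2 arrays of a line, on the log2 scale, was 0.14 in α3 cells, 0.30 in α3α9 cells, 0.17 in α9 cells and 0.10 in null cells.

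Samples were grouped by title. Of 23332 clusters, 14996 had 1 gene in the platform annotation, 1019 several and 7317 were unlisted. The logarithm log2(intensity + 16), not normalized further, was fitted in R 4.3.3 by limma 3.58.1 (lmFit, eBayes) over 8 arrays with 4 line means and 4 residual degrees of freedom. Benjamini-Hochberg adjustment ran over all clusters within a contrast, with a threshold of 0.05. The fit was tested on simulated data, where by contrast it recovered 11% to 20% of 2-fold and 84% to 92% of 4-fold changes. A gene that did not pass may therefore have changed 2-fold. The simulation gave each cluster 1 spread for all lines and no shift between arrays. In the data the spread was widest in the α3α9 line, so the shares recovered may not hold for its contrasts. The members, the 13 gene lists, the motifs and the contrasts were chosen with earlier results of these data known. Genes named beside the 6 members were the 10 with the widest gap, up to 4 of each list that passed in a contrast, family relatives, Itga3, Itga9 and the nearest neighbours. Other neighbours that passed, and the markers and pathway genes given as ranges, were named after their values were seen. The partners of Arhgdib are not reported here. Promoters and gene order came from RefSeq GRCm38.p6. Where an array was left out, the line's lone array was assumed to vary like the others. Same-numbered arrays do not pair: the correlations of their deviations from the line means ran from -0.21 to 0.07. Python 3.11.15 and matplotlib 3.10.9 drew the figures.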

Additional observations from a re-analysis of the deposited data

Results flagged for a closer look

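Il5ra had α3 differences of opposite sign in the 2 backgrounds: -1.50 on the log2 scale with α9 present (α3α9 minus α9) and 1.28 without it (α3 minus null). In both backgrounds the 2 arrays with α3 lay on one side of the 2 arrays without it, below them where α9 was present and above them where it was absent. The difference between these values was not tested, since the α3 line was used to choose the gene. The background with α9 is also the unmarked array set and the background without it the re-analysis. Here too α9 and array set cannot be told apart. The arrays of S100a8, among the 10 genes with the widest gap, lay on the same sides in both backgrounds.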

How the results depend on the processing

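Clusters called in α3 minus null numbered 303, against 1433 after centring arrays on their medians, 1923 after quantile normalization and 151 with a pseudocount of 1. In the same order of settings α3α9 minus α9 had 436, against 1916, 2328 and 174. For α9 minus null the count was 1009, against 3331, 4008 and 211, and for α3α9 minus null it was 1383, against 3746, 4282 and 683. For α3α9 minus α3 it was 765, against 4363, 4398 and 165, with 1380 at a pseudocount of 64 and 1384 without the lowest 25% of clusters. Leaving out 1 array gave 102 to 536 clusters in α3 minus null, 169 to 918 in α3α9 minus α9, 156 to 2532 in α9 minus null, 411 to 2839 in α3α9 minus null and 88 to 2213 in α3α9 minus α3. The causes were not tested.

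Members called in α3α9 minus α9 numbered 5, against 2 with a pseudocount of 1 and 1 to 5 with an array left out. In α9 minus null they numbered 1, against 2 after centring or quantile normalization, 0 with a pseudocount of 1 or 64, and 0 to 2 with an array left out. In α3α9 minus null they numbered 4, and 2 to 5 with an array left out. With the replicate number as a block, 482 clusters were called in α3α9 minus α3. The block left 5 members called in α3α9 minus α9, 1 in α9 minus null and 3 in α3α9 minus null.

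Over 14 settings, Arhgdib kept its calls in α3α9 minus α9 and α3α9 minus null, and Il5ra kept its call in α3α9 minus null. In α3α9 minus α9 the call of Mctp1 was lost without α9 replicate 2 (adjusted p = 0.053). That of Tnip3 was lost without α9 replicate 2 and with a pseudocount of 1. Those of Glipr2 and Il5ra were lost without either α9 array and with a pseudocount of 1, Glipr2 also with a pseudocount of 64 and Il5ra without α3α9 replicate 1. Mcpt8 passed there after centring and quantile normalization. The sign of Arhgdib in α9 minus null, which did not pass, turned to 0.25 without α9 replicate 2 and 0.0079 without null replicate 2, within a range of -0.53 to 0.25 over the arrays left out.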

Other observations

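In the α9 line against the null line, the 16 other genes of the interleukin-5, interleukin-3 and GM-CSF receptor pathway had 3 that rose and 0 that fell, beside 3.5% and 0.823% of all clusters. Pim1, a kinase induced by STAT5, rose by 2.82 (log2; limma adjusted p = 3.05e-04) and Cish, a STAT5-induced inhibitor of cytokine receptors, by 1.69 (adjusted p = 0.0056), both calls kept in all 14 settings. Bcl6, a transcriptional repressor, rose by 1.34 (adjusted p = 0.012), a call lost with a pseudocount of 1 and without α9 replicate 1 or either null array. Among the 21 other genes of A20 and NF-κB control 1 rose, Rel, a subunit of NF-κB, by 1.23 (adjusted p = 0.019), and the call was lost with a pseudocount of 1 and without either α9 or either null array. Il5ra itself had -0.12 (adjusted p = 0.84) in this contrast.

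In the α3α9 line against the null line, Sytl1, a C2-domain protein of vesicle traffic, rose by 1.94 (adjusted p = 0.0013), at 725 ± 182 in the α3α9 line and 175 ± 21.3 in the null line (SD, n = 2). This call held in all 14 settings. Both contrasts cross the array sets, so α9 and array set cannot be told apart.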
